A study of Mus musculus with 8 samples.

Results

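The immunity-related GTPases (IRG proteins) are interferon-inducible, dynamin-like GTPases with which mouse cells defend themselves against parasites and bacteria that live inside vacuoles. Probe sets for 6 IRG genes, of 13319 genes named on the array, were taken by name from its annotation, namely Irgm1, Irgm2, Igtp, Iigp1, Ifi47 and Tgtp1. This gave 7 probe sets of the 22626 on the array that were not controls, 2 of them for Iigp1 and 1 for each other gene. The Tgtp1 probe set also names Tgtp2, a near-identical gene, and is written Tgtp1/Tgtp2 below because its signal cannot be split between them. All 7 passed the filter on dim probe sets, the dimmer one for Iigp1 only through its arrays given IFN-gamma.

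Total RNA came from bone marrow derived macrophages, cultured from marrow of the hind legs for 7 days with M-CSF at 50 ng/ml. The mice lacked a working vitamin D receptor gene (Vdr-/-, given as Vdr tm1 Rge knockout for the untreated array) or were wild type, and the labels state no age or strain background. Cells of each genotype received IFN-gamma and calcitriol (1alpha,25(OH)2D3, the active form of vitamin D), IFN-gamma alone, calcitriol alone, or neither. Treatments lasted 24 to 48 hours, and the labels state no doses. They also describe elicited peritoneal macrophages, but every sample is named as bone marrow derived. Each of the 8 groups had 1 array, so no value has a replicate of its own. Each test below uses a contrast repeated over array pairs, and genotype cannot be told apart from other differences between the mice or cultures. In total RNA of a culture, fewer cells expressing a gene and less RNA per cell cannot be told apart.

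IFN-gamma switches IRG genes on through STAT and IRF transcription factors, which bind a pair of short promoter elements called the GAS and the ISRE. The proteins fall into 2 classes by the GTP-binding loop. Irgm1, Irgm2 and Igtp (also called Irgm3) carry the GMS version, sit on the cell's own membranes and are known as regulators that hold the other class inactive there. Iigp1 (Irga6), Ifi47 (Irgd) and Tgtp1 (Irgb6) carry the more usual GKS version and are effectors, which load onto a pathogen's vacuole and help to break it open.

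The promoter stretches of Irgm2, Igtp, Tgtp1 and Tgtp2 are shown first, because they hold the GAS and the ISRE side by side in the same spacing. No promoter window was available for Iigp1, so its promoter was not searched. RefSeq windows (GRCm38.p6, 250 bases before the gene's start and 50 from it on) were found for Irgm1, Irgm2, Igtp, Ifi47, Tgtp1 and Tgtp2, all on chromosome 11. They were searched on both strands for the GAS, TTCNNNGAA, which is its own reverse complement, and for the ISRE core, which is GAAA, any 2 bases and GAAA again. Each stretch runs 5′ to 3′ along the gene's strand, with matches in capitals and 20 bases on either side.
Irgm2: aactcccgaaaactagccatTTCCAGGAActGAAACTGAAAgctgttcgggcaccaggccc
Igtp: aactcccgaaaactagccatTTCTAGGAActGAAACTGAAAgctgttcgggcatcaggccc
Tgtp1: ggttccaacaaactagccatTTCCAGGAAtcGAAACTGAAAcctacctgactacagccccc
Tgtp2: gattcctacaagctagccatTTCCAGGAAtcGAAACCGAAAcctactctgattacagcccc
Irgm1: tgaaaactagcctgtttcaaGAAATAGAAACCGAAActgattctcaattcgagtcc

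The stretches lie at chr11:58214882-58214942 on the plus strand for Irgm2, chr11:58199491-58199551 on the plus strand for Igtp, chr11:48992294-48992354 on the minus strand for Tgtp1, chr11:49064253-49064313 on the minus strand for Tgtp2 and chr11:48871415-48871470 on the minus strand for Irgm1. In the first 4 genes a GAS match was followed by 2 bases and then an ISRE core match. Irgm1 had 2 ISRE core matches that overlap each other and no GAS match. The Ifi47 window held neither set of letters. Counted from the gene's first base as 0, the GAS match began at -75 in Irgm2, -45 in Igtp, -88 in Tgtp1 and -81 in Tgtp2. The 2 motifs did not overlap in any of these windows.

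Over 32851 windows of the same length, 3.44% held the ISRE core, 8.3% the GAS and 0.454% both. The joined pattern of a GAS, any 2 bases and an ISRE core, whose spacing was read from the genes above, occurred in 5 windows (0.0152%). These were Irgm2, Igtp, Tgtp1, Tgtp2 and Gm12185, a further gene on chromosome 11. Gm12185 lies near Tgtp1 and Tgtp2, in another region of the chromosome than Irgm2 and Igtp. A match of letters is a description and shows no binding. Igtp and Irgm2 are neighbours on chromosome 11, and their windows share an unbroken run of 61 bases, while Tgtp1 and Tgtp2 share one of 27. The windows of Gm12185 and Tgtp2 share a longer unbroken run than either of these. The 5 windows are therefore not independent occurrences of the pattern.

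**Figure D1:**
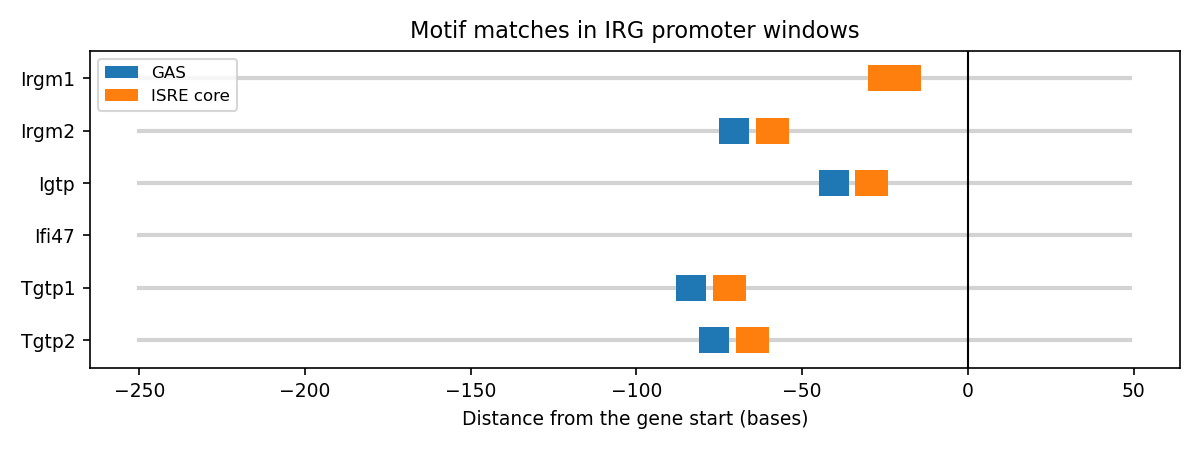
Positions of GAS (blue) and ISRE core (orange) matches in the promoter windows of 6 genes, as distance from the gene start in bases; each grey line is 1 window. The GAS match lies just upstream of the ISRE core match in Irgm2, Igtp, Tgtp1 and Tgtp2, while Irgm1 has 2 overlapping ISRE core matches and Ifi47 has no match.

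The arrays behind the values were of uneven quality. The 3'/5' signal ratio of the Gapdh control, which rises when labelled RNA is truncated, was 7.67 on the array of wild-type cells with calcitriol, 4.82 on that of untreated Vdr-/- cells and 3.06 on that of Vdr-/- cells with IFN-gamma, while the other 5 had 0.853 to 1.65. The Vdr probe sets went against the labels of the untreated arrays, reading 90.3 and 63.2 on the array labelled Vdr-/- untreated and 6.7 and 5.3 on the array labelled wild-type untreated, while with every treatment they were higher in wild type. Where these probe sets lie relative to the deletion is unknown here, so they may say nothing of the genotype. Of 10 macrophage markers 9 were measured and had medians above the filter limit (59.1), Csf1r, Adgre1 and Cd68 among them. The summed signal of 7 lymphocyte and NK cell markers ran from 93.3 to 376.1, against 40791 to 60821 for the macrophage list. The 8 measured neutrophil markers summed to 248 to 350 with IFN-gamma and 406 to 694 without, and the 6 stromal markers to 152 to 307 and 344 to 606. These 2 lists were thus lower with IFN-gamma, but only 2 of the 8 and 2 of the 6 had medians above the filter limit. Their sums thus hold mostly dim signals, and their part in the results below was not tested.

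IFN-gamma was compared with its absence to ask how strongly each IRG gene responds, and every member rose. All 7 probe sets were called higher, from 8.08-fold for Igtp to 233-fold for Tgtp1/Tgtp2, whose resting signal lay partly at the floor (limma with Benjamini-Hochberg adjustment over 18058 tested probe sets, adjusted p at most 2.11e-06). Among all tested probe sets 3.43% were called, 2.15% higher and 1.27% lower. The members' median change was 4.67 log2, against -0.08 over all tested probe sets. In all 7 the 4 arrays with IFN-gamma lay above the 4 without it, as did 3.07% of tested probe sets. The labels give the treated arrays a culture of 24 to 48 hours and the 2 untreated ones none. In the pairs without calcitriol, IFN-gamma and that culture step cannot be told apart. The SEs combine the disagreement of a probe set's own 4 array pairs (3 residual degrees of freedom) with a spread that limma shares over all probe sets, which weighs as 20.2 degrees of freedom. From its own pairs alone the SE would be 0.62 for Irgm1, 0.624 for Irgm2 and 0.627 for Tgtp1/Tgtp2, larger than the 0.333, 0.42 and 0.322 used, and 0.118 to 0.318 for the other 4 probe sets. Leaving out the wild-type calcitriol and Vdr-/- untreated arrays, or the 2 untreated arrays, kept all 7 changes positive, with 4 and 5 probe sets still called. Both were additive fits, in which genotype, calcitriol and IFN-gamma effects are added without pair blocks. Without the untreated arrays, the IFN-gamma effect is that of the calcitriol pairs only.

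**Figure D2:**
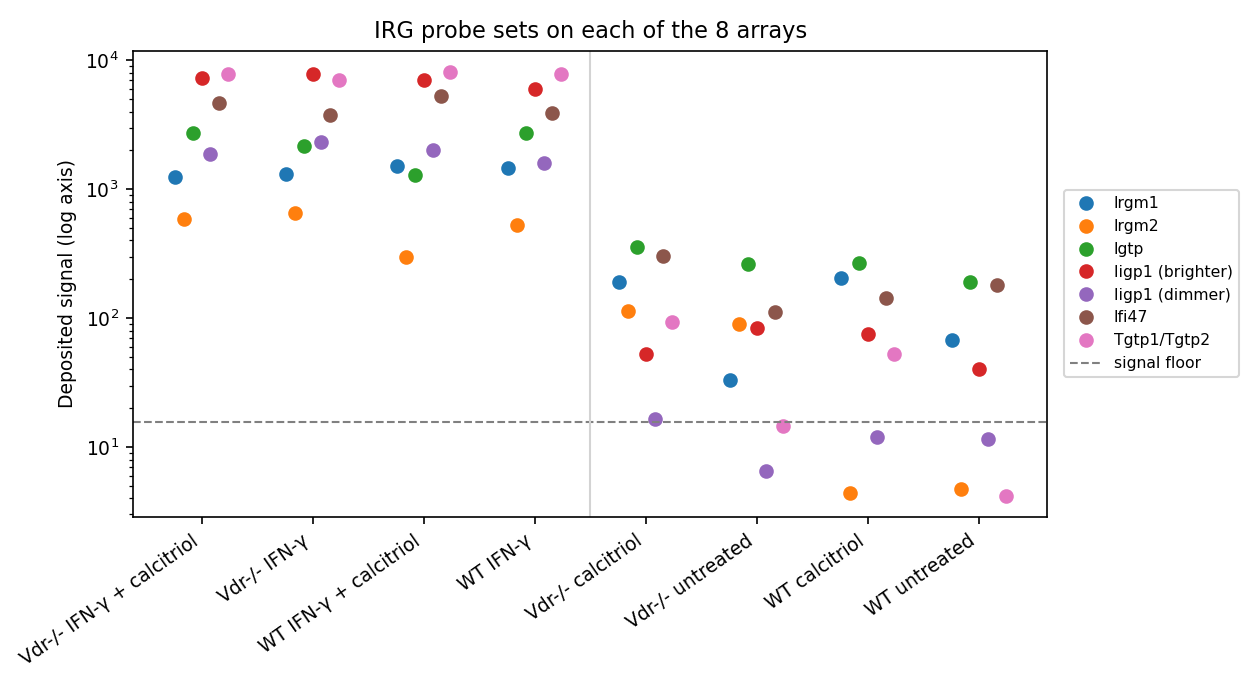
Deposited signal (log axis) of the 7 IRG probe sets on each of the 8 arrays, 1 point per probe set and array, with IFN-gamma at the left of the vertical line and without it at the right; the dashed line is the floor of 15.5. On every array with IFN-gamma each probe set reads above its own values on all arrays without it.

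Among the regulators, Irgm1, which is needed for defence against mycobacteria and other vacuolar pathogens, read 1248.5 and 1299.8 in Vdr-/- cells given IFN-gamma with and without calcitriol. In wild-type cells given IFN-gamma it read 1518.5 and 1458.1 in the same order. Without IFN-gamma it read 191.0 and 33.3 in Vdr-/- cells with and without calcitriol, and 204.7 and 68.0 in wild-type cells. The 4 arrays with IFN-gamma thus differed by at most 1.22-fold, while those without it differed by 6.15-fold, with both calcitriol arrays high and both untreated arrays low. The rise of Irgm1 was 14.2-fold, or 3.83 log2 (SE 0.333, limma adjusted p = 1.8e-08), and 2.80 log2 without the 2 untreated arrays (adjusted p = 0.0433). The call was lost without the 2 arrays of highest Gapdh ratio (3.60 log2, adjusted p = 0.0561) and without the signal filter (0.0829).

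Irgm2, a regulator found on Golgi membranes, read 585.6 and 657.8 in Vdr-/- cells with IFN-gamma (with and without calcitriol), and 296.8 and 530.2 in wild-type cells. Without IFN-gamma it read 112.6 and 89.3 in Vdr-/- cells, and 4.4 and 4.7 in wild-type cells, both below the floor of 15.5 that stands for background. Without IFN-gamma, Irgm2 was thus above the floor only on the arrays labelled Vdr-/-, and the Vdr signals of the untreated arrays went against their labels. The IFN-gamma rise was 5.20-fold and 7.37-fold in the Vdr-/- pairs with and without calcitriol, and at least 19.1-fold and 34.2-fold in the wild-type pairs. Over all pairs Irgm2 rose by 3.65 log2 (SE 0.42, limma adjusted p = 2.11e-06). That size depends on the floor, at 4.44 log2 with the floor at the 10th percentile and 2.97 log2 at the 40th. The call was lost in 6 of 13 alternatives. These were the fits without the untreated arrays (3.32 log2, adjusted p = 0.441), without the arrays of highest Gapdh ratio (3.57, 0.19), with no filter on dim probe sets (0.0967) and with no intensity trend (0.053). The others left out the wild-type pair given calcitriol (3.45 log2, 0.0765) or the Vdr-/- pair that lacked it (3.91, 0.0635).

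Igtp, a regulator of the endoplasmic reticulum and lipid droplets, had the highest resting signal relative to its induced one. With IFN-gamma it read 2741.6 and 2156.8 in Vdr-/- cells (with and without calcitriol), and 1287.5 and 2701.5 in wild-type cells. Without IFN-gamma the readings were 359.0 and 260.7 in Vdr-/- cells, and 268.2 and 192.0 in wild-type cells. The wild-type array with both agents was the low one among the 4 with IFN-gamma, yet it still read 3.59 times the highest array without IFN-gamma. Igtp rose by 3.01 log2 (SE 0.244, limma adjusted p = 5.26e-09), the smallest change among the 7 probe sets. Without the 2 untreated arrays the change was 2.60 log2 (adjusted p = 0.21), and without the 2 arrays of highest Gapdh ratio 3.02 log2 (0.0849).

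Among the effectors, Iigp1, a GTPase that coats and disrupts the Toxoplasma vacuole, was measured by 2 probe sets. The brighter one read 7294.4 and 7846.4 in Vdr-/- cells with IFN-gamma (with and without calcitriol), and 7050.9 and 5961.0 in wild-type cells. Without IFN-gamma it read 53.1 and 83.7 in Vdr-/- cells, and 75.2 and 40.2 in wild-type cells. It rose 93.7-fold to 148-fold in the 4 pairs. The dimmer probe set read 1874.9 and 2332.0 in Vdr-/- cells with IFN-gamma, and 2012.6 and 1603.0 in wild-type cells, while 3 of the 4 arrays without IFN-gamma were below the floor. Log2 changes over all pairs were 6.85 (SE 0.229, adjusted p = 4.12e-16) and 6.94 (SE 0.323, adjusted p = 1.81e-13). The second value is set by the floor, at 7.45 log2 with the floor at the 10th percentile and 5.59 at the 40th, while the brighter probe set stayed at 6.85. Limma called Iigp1 under all 14 alternatives tried.

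The probe set of Tgtp1/Tgtp2, effectors loaded early onto the Toxoplasma vacuole, read 7783.2 and 7004.7 in Vdr-/- cells with IFN-gamma (with and without calcitriol), and 8109.3 and 7835.3 in wild-type cells, the narrowest range of the 7 at 1.16-fold. Without IFN-gamma it read 93.4 and 14.5 in Vdr-/- cells, and 52.4 and 4.2 in wild-type cells, so both untreated arrays were below the floor and both calcitriol arrays above it. The rise was 83.3-fold and at least 452-fold in the Vdr-/- pairs with and without calcitriol, and 155-fold and at least 506-fold in the wild-type pairs. The mean change was 7.86 log2 (SE 0.322, limma adjusted p = 1.35e-14), with a size that depends on the floor, at 8.28 log2 with the floor at the 10th percentile and 7.18 at the 40th. Without the 2 untreated arrays it was 6.83 log2 (adjusted p = 0.00412), beside 6.83 and 6.92 for the Iigp1 probe sets, so the order of these genes is not settled.

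Ifi47, an effector whose promoter window held neither motif, read 4690.8 and 3781.1 in Vdr-/- cells with IFN-gamma (with and without calcitriol), and 5255.7 and 3901.1 in wild-type cells. Without IFN-gamma it read 300.8 and 111.4 in Vdr-/- cells, and 142.9 and 179.2 in wild-type cells. The lowest array with IFN-gamma was 12.6 times the highest without it. The rise of Ifi47 was 25.5-fold, or 4.67 log2 (SE 0.236, limma adjusted p = 7.08e-13), and the change was 4.23 to 4.91 log2 under the 13 alternatives tried, called in each. The 4 effector probe sets thus had changes of 4.67 to 7.86 log2 and the 3 regulators of 3.01 to 3.83 log2. No test was made of that difference between classes, and some members of each class had resting signals at the floor.

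**Figure D3:**
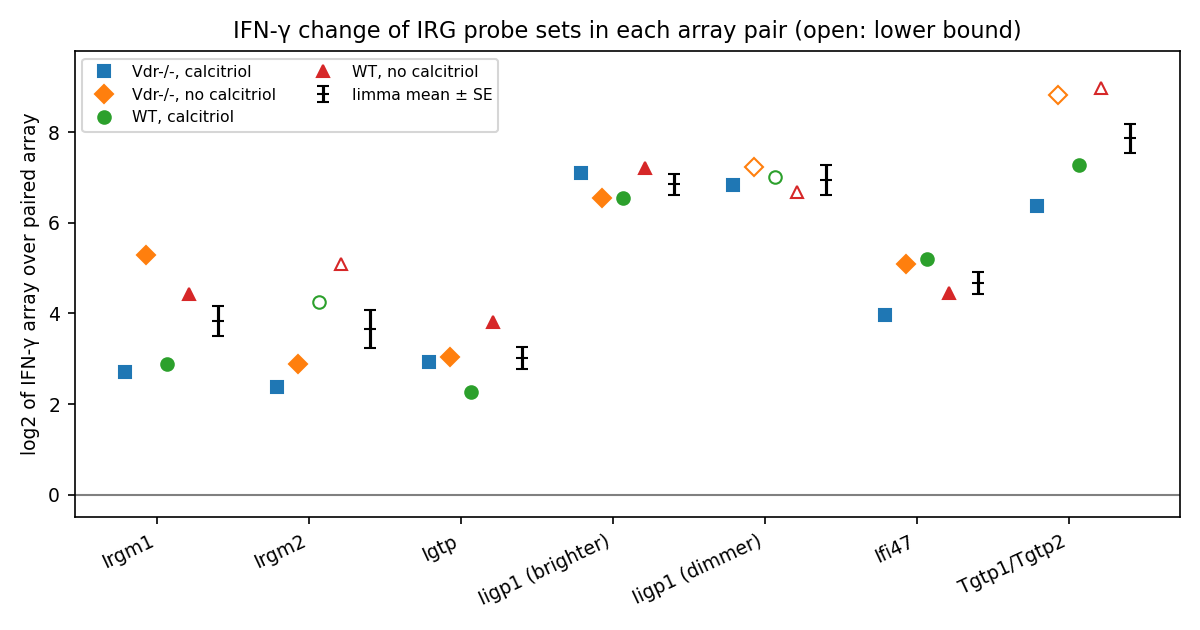
Log2 of the IFN-gamma array over its paired array without IFN-gamma, for each IRG probe set and each of the 4 pairs of genotype and calcitriol; open symbols are lower bounds because the paired array was below the floor, and black bars are the limma mean with its standard error. All changes are above 2, and Irgm1, Igtp and Tgtp1/Tgtp2 are lower in both calcitriol pairs than in both pairs without calcitriol.

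Calcitriol and genotype were compared next, to ask whether the hormone or its receptor changes IRG expression. Of the 7 probe sets none was called by limma for calcitriol in Vdr-/- cells (3 at an unadjusted p under 0.05), calcitriol in wild-type cells (0) or Vdr-/- against wild type (1). The share of all tested probe sets called was 0.194% (all higher), 0.576% (0.188% higher and 0.388% lower) and 0% in these contrasts, and 6.35%, 10.3% and 3.38% had an unadjusted p under 0.05. The 95% intervals of the calcitriol effect were wide. For Irgm1 it was 0.24 to 2.23 log2 in Vdr-/- and -0.17 to 1.82 in wild-type cells, and for Igtp -0.34 to 1.15 and -1.03 to 0.45. The calcitriol effect itself was called different between the genotypes for 0 of 7 probe sets (0 at an unadjusted p under 0.05), against 1.5% of all tested (12.2% unadjusted).

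Within the cells given IFN-gamma, Igtp and Irgm2 had their lowest value in wild-type cells with calcitriol. Calcitriol alongside IFN-gamma gave a log2 difference of 0.35 for Igtp in Vdr-/- cells and -1.07 in wild-type cells, and of -0.17 and -0.84 for Irgm2. These are single array pairs with no test. That array was also the lowest of the 4 for 32.1% of the 3155 probe sets with a mean IFN-gamma signal of at least 300, so 2 of 7 members is near that share. Iigp1, Ifi47 and Tgtp1/Tgtp2 were 1.04-fold to 1.35-fold higher with calcitriol in IFN-gamma treated wild-type cells, and Irgm1 1.04-fold higher. The highest over the lowest of the 4 IFN-gamma arrays was 2.22 for Irgm2, 2.13 for Igtp and 1.16 to 1.46 for the other 5 probe sets, against quartiles of 1.39 and 2.0 and a median of 1.62 among those 3155.

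**Figure D4:**
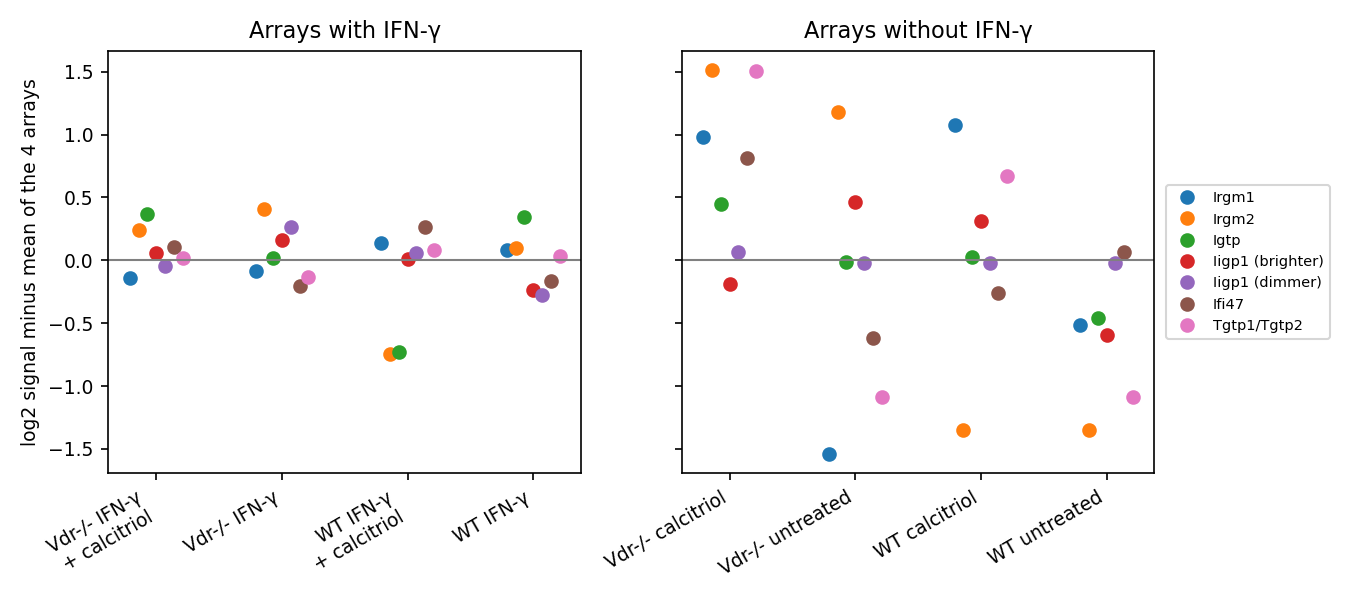
Log2 signal (floored at 15.5) of each IRG probe set minus its mean over the 4 arrays with IFN-gamma (left) and over the 4 without (right). With IFN-gamma most points lie within 0.5 of 0, apart from Igtp and Irgm2 on the wild-type array with calcitriol, while without IFN-gamma Irgm1, Irgm2 and Tgtp1/Tgtp2 spread by more than 2 log2.

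Without IFN-gamma the highest array was 6.15 times the lowest for Irgm1 and 1.87 times for Igtp, against 1.22 and 2.13 with IFN-gamma. Irgm1, Igtp and Tgtp1/Tgtp2 were higher on both calcitriol arrays than on both untreated arrays, a pattern that 11.9% of tested probe sets showed. In these single array pairs the calcitriol array read 5.74 times the untreated one for Irgm1 in Vdr-/- cells and 3.01 times in wild-type cells, and 1.38 and 1.40 times for Igtp. The IFN-gamma effect with calcitriol minus that without it had a log2 value of -2.05 for Irgm1 (SE 0.56, unadjusted p = 0.000747, limma adjusted p = 0.692) and -2.07 for Tgtp1/Tgtp2 (SE 0.524, 0.000326 and 0.653). The second of these is set by the floor, under which both untreated arrays lay, and was -2.91 with the floor at the 10th percentile and -0.70 at the 40th. Neither passed the test, nor did any of the 7 or of all 18058 probe sets (0%), with 3.61% at an unadjusted p under 0.05. The labels describe a culture of 24 to 48 hours for the treated arrays and none for the 2 untreated ones, so calcitriol and that culture step cannot be told apart here, and the Vdr signals of the untreated arrays went against their labels.

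Irgm2 was higher in Vdr-/- than in wild-type cells in all 4 pairs, as were 4.37% of tested probe sets. One of these pairs is that of the untreated arrays, whose Vdr signals went against their labels. The log2 difference was 1.67 (SE 0.464, unadjusted p = 0.00164, limma adjusted p = 0.999), and 0 probe sets were called for genotype. Its size depends on the floor, at 2.46 log2 with the floor at the 10th percentile and 0.98 at the 40th. In single pairs it was at least 2.86 with calcitriol alone and at least 2.53 in untreated cells, where wild type was below the floor, and 0.98 with both agents and 0.31 with IFN-gamma alone. Without the 2 untreated arrays the difference was 1.38 log2. The IFN-gamma effect on Irgm2 had a difference between genotypes of -2.05 log2 (Vdr-/- minus wild type, SE 0.747, limma adjusted p = 0.996), with -3.62 and -0.68 log2 at those 2 floors, and 0 probe sets were called for that difference, with 3.52% at an unadjusted p under 0.05. The other 6 probe sets had genotype differences of -0.39 to 0.41 log2.

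Genes that work with the IRG proteins were set beside them. The guanylate-binding proteins, a sister family of GTPases that act on the same vacuoles, rose for 6 of 6 measured genes, with a median of 5.79 log2. Over all tested probe sets 2.15% were called higher. Gbp2b rose by 7.81 log2, Gbp2 by 6.82, Gbp8 by 5.84 and Gbp6 by 5.74, while Gbp7 rose by 4.04 and Gbp3 by 3.46. Gbp2b read 5.2 to 12.8 without IFN-gamma, below the floor on every array, and the median of Gbp8 was also below it, so the sizes for these 2 depend on the floor. Gbp2b, Gbp8, Gbp6 and Gbp3 passed the filter on dim probe sets only through the arrays with IFN-gamma. Of 13 measured genes of IFN-gamma signalling 6 rose and 0 fell, against 2.15% higher and 1.27% lower over all tested probe sets. Among these, Irf1, a transcription factor that binds the ISRE, read 3348.8 to 4098.1 with IFN-gamma and 192.8 to 428.7 without and rose by 3.69 log2 (limma adjusted p = 1.85e-11), and the feedback inhibitor gene Socs1 rose by 3.73 log2 (4.68e-06). Socs3, which also passed that filter only through the arrays with IFN-gamma, rose by 2.77 and Stat2 by 2.59 log2.

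The autophagy genes that attach LC3 and GABARAP proteins to membranes, which IRG loading needs, were listed with 12 measured genes. Of these 0 passed the limma test and 2 had an unadjusted p under 0.05 (median -0.004 log2), near the 3.43% and 12.4% over all tested probe sets, the largest change being -1.40 log2 for Atg7 (adjusted p = 0.0909), while Gabarapl1 had -0.47, Atg12 0.42 and Gabarap 0.32 log2. Of 6 measured genes for ubiquitin and p62 adaptors at the vacuole 1 rose, the ubiquitin-like modifier gene Ubd, by 2.16 log2 (adjusted p = 0.0324), against 2.15% of all tested probe sets called higher. Ubd passed the filter on dim probe sets only through the arrays with IFN-gamma. In this list 4 of the 6 had an unadjusted limma p under 0.05, in either direction, against 12.4% over all. There the log2 change was 0.77 for Trim21 (adjusted p = 0.271), 0.74 for Sqstm1, which encodes p62 (0.279), and -0.54 for Nbr1 (0.355).

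Gm12185 was the only measured gene of the list of other IRG genes, and its promoter window held the joined GAS and ISRE pattern at chr11:48927228-48927288 on the minus strand.
Gm12185: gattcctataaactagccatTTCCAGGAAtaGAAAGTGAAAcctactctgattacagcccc
Its probe set read 82.6 to 137.7 with IFN-gamma and 79.6 to 123.3 without, and the groups overlapped. The log2 change was 0.15 (SE 0.426, limma adjusted p = 0.931), while its GAS and ISRE core have the same spacing as in Tgtp1. Its readings were not far above the filter limit of 59.1, and no detection calls were used. An unchanged gene and a probe set that detects little of it cannot be told apart here.

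**Figure D5:**
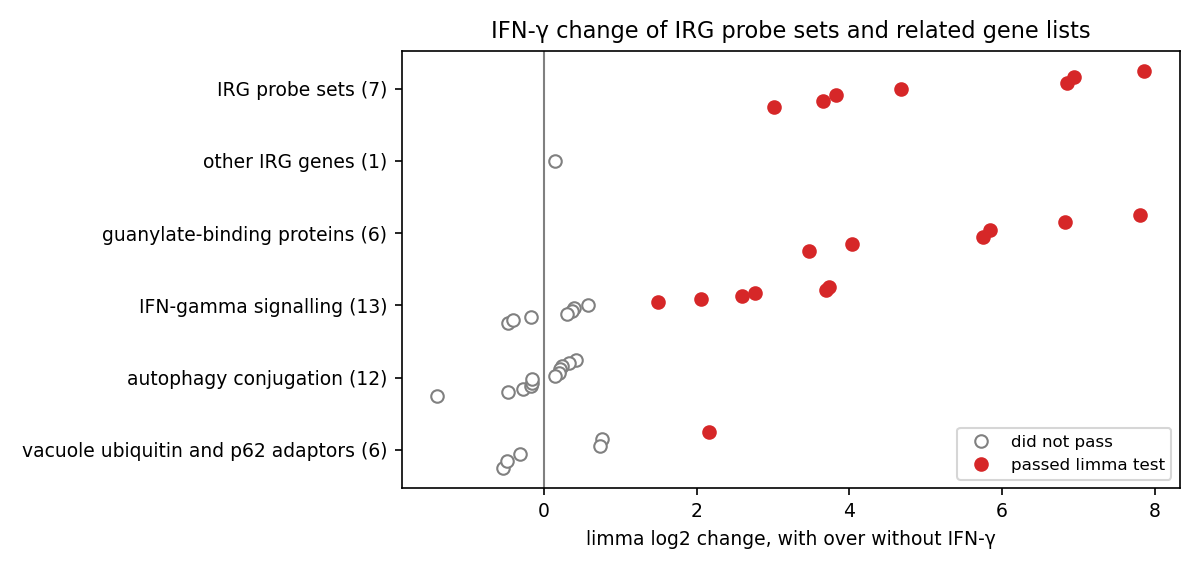
Limma log2 change with over without IFN-gamma for the 7 IRG probe sets and for the measured genes of 5 related lists (number in brackets); filled red points passed the test at an adjusted p under 0.05 and open points did not. The IRG and guanylate-binding protein rows lie wholly to the right of 3, and the autophagy row lies between -1.40 and 0.42.

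The genes whose pattern was most like the mean log2 signal of the 6 IRG genes over the 8 arrays were Gbp2 (Pearson's r = 0.993), Gbp7 (0.992), Gbp3 (0.991), Irf1 (0.987) and Icam1 (0.986), the last an adhesion molecule gene. The points share their arrays and scaling, and the 4 arrays with and the 4 without IFN-gamma form separate clusters and set most of r. Of 10432 genes compared, 37 had r of at least 0.95.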

How the data were processed

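The deposited values were linear intensity signals per probe set, 1 column per array. Arrays shared a 2% trimmed mean of 150.07 to 150.08, so the authors had scaled them, as the values show. The software behind the scaling is not named in the labels, and no detection calls were used. After 64 control probe sets were set aside, a floor was set at the 25th percentile of all signals (15.5) before taking log2. A probe set was tested if any array reached the median of all signals (59.1). Of the 22626, 20380 had 1 gene name, 691 several and 1555 none. For other genes the brightest probe set stands for the gene, and for the 6 IRG genes all are given. Precision is limited by having 8 arrays and by how far signals stand above background.

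All tests were two-sided moderated tests (limma 3.58.1, R 4.3.3, intensity trend) called at an adjusted p under 0.05. IFN-gamma and genotype effects were fitted over 4 array pairs as blocks, and calcitriol effects and differences of effects with 2 residual degrees of freedom. The fits were checked on simulated data with known changes. At 2 log2, 58% of changes were recovered for the IFN-gamma effect and 63% for genotype. Recovery was 31% for calcitriol in wild-type cells and 36% in Vdr-/- cells. It was 17% for the difference of the IFN-gamma effect between genotypes and 7% for that by calcitriol. Most changes of that size were thus missed in the calcitriol and difference contrasts. A lack of calls there does not show that an effect is absent. Members, lists and tests were chosen with earlier results of these data known, the motifs after the promoter windows were read. Named were all members, up to 4 genes per list by size of change, and the 5 genes of most similar pattern. Alternatives were other floors, filters and normalization, no trend, additive fits and leaving out arrays or pairs. Promoter sequences are RefSeq's (GRCm38.p6). Figures used matplotlib 3.10.9.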

Additional observations from a re-analysis of the deposited data

Results flagged for a closer look

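The brighter Iigp1 probe set moved in opposite directions with calcitriol in the genotypes as labelled, lower in both Vdr-/- pairs (log2 -0.11 with IFN-gamma and -0.66 without) and higher in both wild-type pairs (0.24 and 0.90). The larger changes, without IFN-gamma, rest on the untreated arrays, whose Vdr signals went against their labels. Those pairs also hold the arrays with Gapdh ratios of 7.67 and 4.82. Their signals were low, at 53.1 and 83.7 in Vdr-/- cells and 75.2 and 40.2 in wild-type cells (with and without calcitriol), around the filter limit of 59.1. The difference of the calcitriol effect, Vdr-/- minus wild type, was -0.954 log2 (SE 0.478, limma unadjusted p = 0.0578, adjusted p = 0.435), while 1.5% of tested probe sets were called for it and 12.2% had an unadjusted p under 0.05. The dimmer Iigp1 probe set gave -0.28 log2 (adjusted p = 0.9).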

How the results depend on the processing

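The number of IRG probe sets called higher with IFN-gamma was 7 of 7 and fell to 4 without the 2 arrays of highest Gapdh 3'/5' ratio, which leaves fewer arrays. It was 6 to 7 when 1 array pair was left out, 5 without the signal filter or without the 2 untreated arrays, 6 without the intensity trend and 7 under the other alternatives, all higher. The fits without the arrays of highest Gapdh ratio or without the untreated arrays were additive ones. Over all probe sets 619 were called, and 24 to 638 under these alternatives, 24 of them without the untreated arrays. Iigp1, Ifi47 and Tgtp1/Tgtp2 were called in every alternative, Irgm1 and Igtp in 11 of 13 and Irgm2 in 7 of 13. No IRG probe set was called for genotype, for calcitriol in either genotype or for the differences of the IFN-gamma effect in any alternative run. Without the 2 arrays of highest Gapdh ratio, the differences by genotype and by calcitriol gave identical values and cannot be told apart. The difference by calcitriol could not be fitted without the untreated arrays. For Tgtp1/Tgtp2 that difference was -2.91 log2 with the floor at the 10th percentile and -0.70 at the 40th, since untreated arrays were below the floor. The labels give no replicate numbers to block on, so the only pairing used is that of arrays matched on the other factors. Detection calls are not used here, so values near the floor have no order.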

Other observations

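Promoter windows could be set beside the IFN-gamma change for 8411 tested genes. The ISRE core was present in 16.3% of the 202 genes called higher with IFN-gamma and in 4.02% of all 8411, and the GAS in 12.4% and 8.43%. Both motifs were present in 6 of the 202 (2.97%), Igtp and Irgm2 among them, and in 0.51% of all. These shares are descriptions without a test. The motifs were chosen after the IRG promoter windows were read, and IRG genes are counted in the shares, so these are not independent of that choice.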
